A study of Mus musculus with 4 samples.

Results

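Acetylation of histone H3 at lysine 9 (H3K9ac), which marks active promoters, was examined over 10 genes of the Polycomb system and its opponents: Ezh2, Ezh1, Suz12, Eed, Ring1, Rnf2, Bmi1, Cbx7, Kdm6a and Kdm6b. The genes were chosen by function. Every peak over the RefSeq span of each gene and over 10 kb on either side, called the gene window here, was taken from the mm10 peak lists. This gave 76 of 103336 peaks with romidepsin and 22 of 16419 peaks without it, over 10 of 21887 protein-coding genes.

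The cells were myeloid-derived suppressor cells (MDSC) grown from mouse bone marrow, made senescent in culture per the series title. One library came from cells given romidepsin, an inhibitor of histone deacetylases, in the condition that the labels call CM, and the other from cells in CM alone. The labels do not expand CM and give no dose, time, strain, sex or age. Chromatin was sheared by sonication into fragments that, per the labels, could be longer than the shortest peaks. Each condition had 1 immunoprecipitated library, so no difference between conditions has a replicate check and none was tested, and the 2 input libraries were not analysed here.

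Polycomb proteins act in complexes that keep genes silent. Polycomb repressive complex 2 (PRC2) methylates lysine 27 of histone H3 (H3K27), and Polycomb repressive complex 1 (PRC1) ubiquitinates histone H2A and compacts chromatin. KDM6 enzymes remove H3K27 methylation. In mouse fibroblasts and blood progenitors the Polycomb proteins, BMI1 and CBX7 among them, hold down the Cdkn2a locus, whose products enforce senescence.

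Every gene for which a start site was annotated carried H3K9ac over that start in both conditions, and with romidepsin the peak there was longer. A start site peak, meaning a peak within 1 kb of the annotated start, was present at 9 of 9 genes with romidepsin (exact Clopper-Pearson interval 66.4 to 100%) and at 9 of 9 in CM. Over all 17492 protein-coding genes with an annotated start, the share with such a peak was 63.1% with romidepsin (interval 62.4 to 63.9) and 51.4% in CM (interval 50.6 to 52.1). All 9 had it in both lists, which 51.4% of all genes did, and none had it with romidepsin only (11.8% of all genes), in CM only (0.00572%) or in neither list (36.9%). The intervals cover counting error only, and the 9 genes were chosen rather than drawn at random. Kdm6b had no start entry in the table used and is described over its whole span. The start itself lay inside the peak in both lists at all 9 genes, and the share over all genes was not computed.

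The start site peak was longer with romidepsin than in CM at 9 of 9 genes, but it was so at 99.5% of all 8984 genes with a peak in both lists. The median length over the 9 genes was 6874 bp with romidepsin and 2160 bp in CM, beside 4653 and 1602 bp over all genes with such a peak. The length ratio, romidepsin over CM, had a median of 3.501 over the 9 genes and 3.35 over all genes. Widening at these genes was therefore near the genome-wide level, and what set them apart from each other was its size and direction. How many reads each library had is unknown, and peaks become more numerous and wider with depth.

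Each peak also has a fold, its enrichment over the background that the authors' peak caller modelled, and a −log10 q for its evidence. The 2 scales do not run together across the lists. Kdm6a had a fold of 3.26 with romidepsin and 5.12 in CM at nearly the same −log10 q, 4.08 with romidepsin and 4.10 in CM. Folds are therefore ranked only within a list, and a lower fold with romidepsin does not measure a loss of acetylation.

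**Figure D1:**
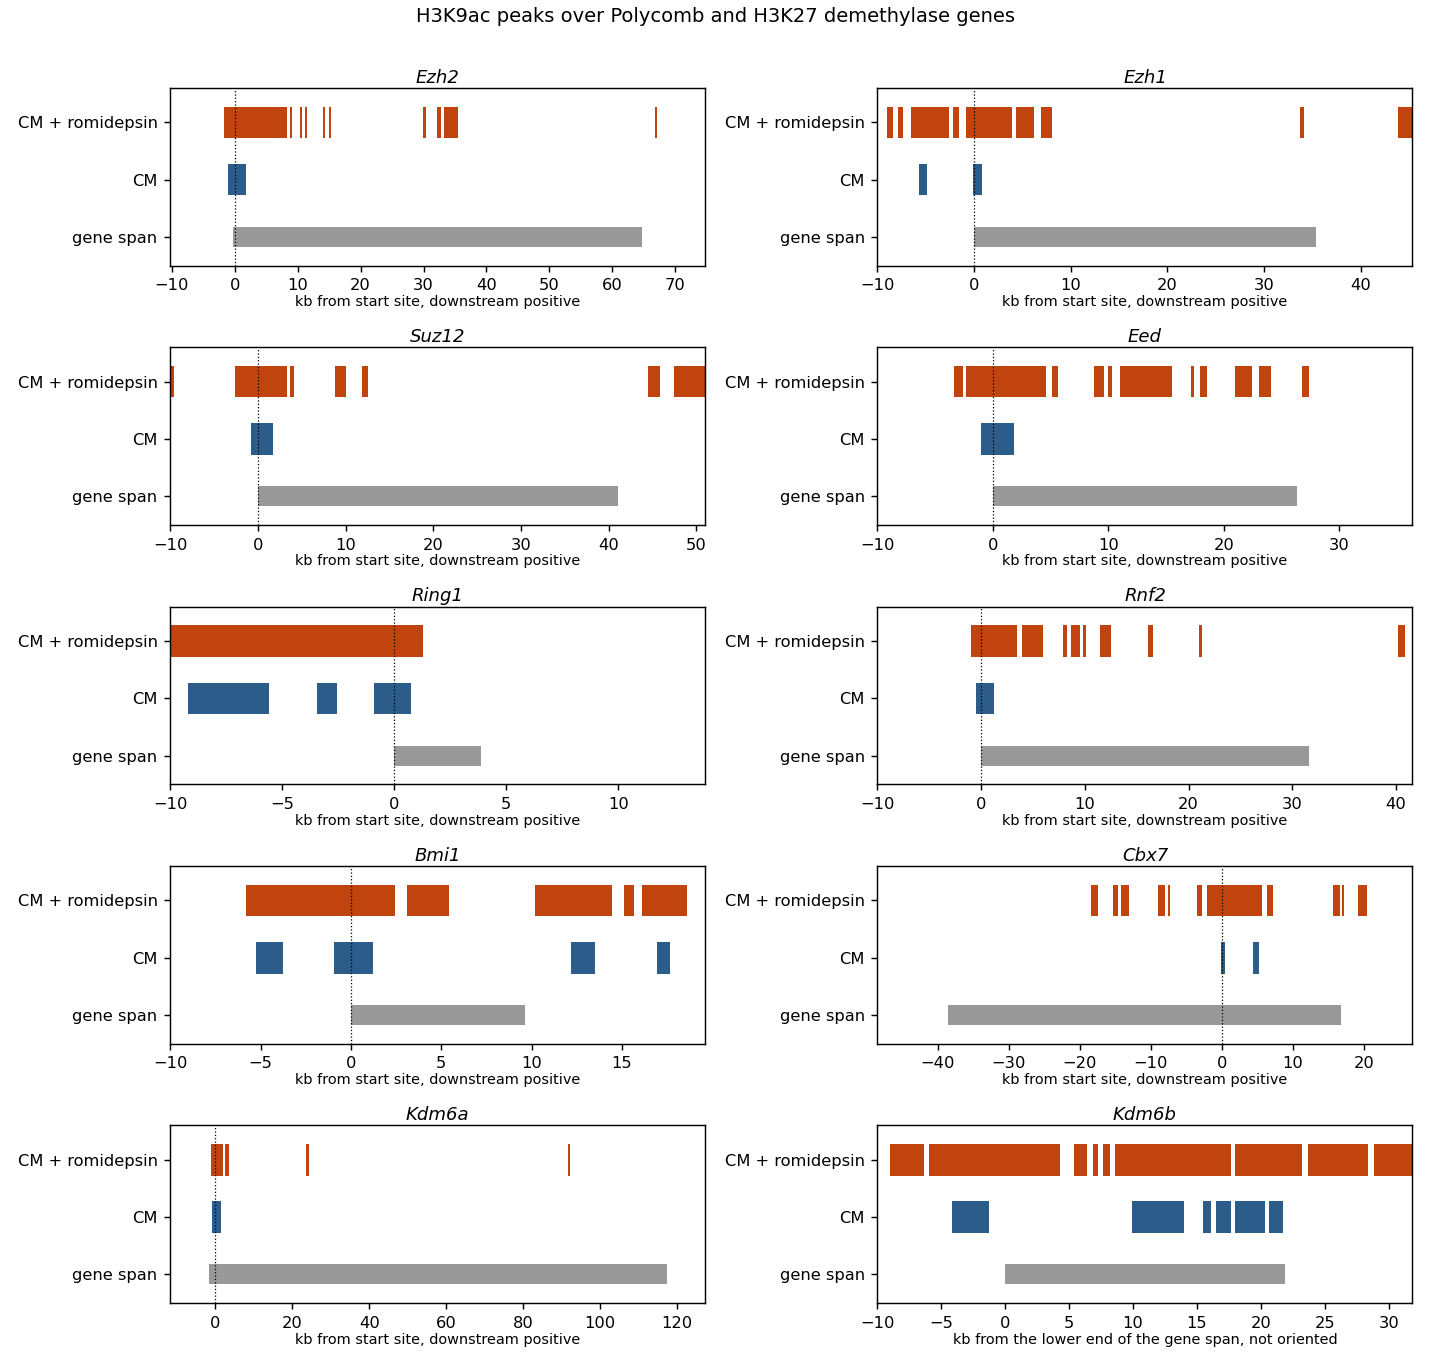
H3K9ac peaks over the 10 gene windows, in kb from the annotated start site with the direction of transcription to the right (Kdm6b in kb from the lower end of its span, not oriented). Bars are peaks with romidepsin (top row), peaks in CM (middle row) and the gene span (bottom row). CM peaks sit at start sites in most windows, and romidepsin peaks extend from them and add short peaks within the genes; bars are drawn up to the window's edge.

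PRC2 has a catalytic subunit, EZH2 or its paralogue EZH1, with the scaffold SUZ12 and EED, which binds methylated H3K27. The 4 genes had 37 peaks in their windows with romidepsin and 5 in CM, and the windows were covered by peaks to 25.2% with romidepsin and 4.03% in CM. The promoters of these genes are shown because H3K9ac covered their starts in both conditions and because they differ in sequence. Each runs 5′ to 3′ from 250 bases before the start to 30 bases from it on, on the gene's strand, from RefSeq on GRCm38.p6 (mm10). Capitals mark matches, on either strand, to GGGCGG (bound by SP and KLF factors), TTTCCCGC or TTTGGCGC (E2F factors) and CCAAT (NF-Y).
Ezh2 (chr6:47595001-47595280, minus strand): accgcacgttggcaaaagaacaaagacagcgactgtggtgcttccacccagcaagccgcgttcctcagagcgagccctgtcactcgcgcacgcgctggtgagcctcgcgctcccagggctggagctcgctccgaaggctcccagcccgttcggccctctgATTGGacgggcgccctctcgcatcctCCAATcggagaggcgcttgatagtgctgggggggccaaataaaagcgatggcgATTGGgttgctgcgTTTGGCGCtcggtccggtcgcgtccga
Ezh1 (chr11:101226434-101226713, minus strand): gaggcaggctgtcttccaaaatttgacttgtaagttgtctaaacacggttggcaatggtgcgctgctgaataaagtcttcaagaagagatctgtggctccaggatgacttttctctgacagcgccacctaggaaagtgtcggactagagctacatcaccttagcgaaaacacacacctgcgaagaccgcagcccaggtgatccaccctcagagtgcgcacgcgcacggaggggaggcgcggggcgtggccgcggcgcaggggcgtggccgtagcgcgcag
Suz12 (chr11:79992856-79993135, plus strand): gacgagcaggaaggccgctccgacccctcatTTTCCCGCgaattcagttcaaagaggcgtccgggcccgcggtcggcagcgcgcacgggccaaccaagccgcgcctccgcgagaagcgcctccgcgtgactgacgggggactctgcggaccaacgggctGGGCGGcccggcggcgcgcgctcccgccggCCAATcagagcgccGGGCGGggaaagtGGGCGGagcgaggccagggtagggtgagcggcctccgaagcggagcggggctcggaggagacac
Eed (chr7:89980947-89981226, minus strand): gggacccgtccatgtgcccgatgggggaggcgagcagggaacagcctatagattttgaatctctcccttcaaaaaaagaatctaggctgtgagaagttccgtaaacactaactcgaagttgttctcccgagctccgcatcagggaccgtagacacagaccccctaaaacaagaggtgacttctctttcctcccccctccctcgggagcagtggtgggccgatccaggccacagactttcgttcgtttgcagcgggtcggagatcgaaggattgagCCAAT

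Ezh2, which encodes the main H3K27 methyltransferase of dividing cells, had 1 CM peak, and it lay over the start site. The peak with romidepsin ran over 9995 bp (chr6:47586666-47596660, fold 3.80, −log10 q 6.02), and the CM peak over 2855 bp (chr6:47593276-47596130, fold 6.33, −log10 q 6.53). Nearly all of the added length lay within the gene: the peak reached 8364 bp downstream of the start with romidepsin and 1754 bp in CM. Upstream it reached 1630 bp with romidepsin and 1100 bp in CM. Both peaks also held the start of the long non-coding RNA gene F830010H11Rik, so acetylation of the pair cannot be told apart. A further 9 romidepsin peaks without a CM peak, the longest 2140 bp, were listed in the window.

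Ezh1, the paralogue linked to non-dividing cells, had a much shorter CM peak than Ezh2. Its start site peak ran over 4785 bp with romidepsin (chr11:101222525-101227309, fold 3.71, −log10 q 5.63) and over 851 bp in CM (chr11:101225683-101226533, fold 5.11, −log10 q 4.58). In CM this peak ended 70 bp upstream of the start, and with romidepsin 846 bp upstream. By length the CM peak stood at percentile 16.2 of all CM start site peaks for Ezh1 and at 86.4 for Ezh2. Ezh1 also had a second CM peak in its upstream flank (chr11:101231290-101232160, 871 bp, fold 4.18), which lay inside a romidepsin peak of 3974 bp (fold 3.55).

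Suz12 and Eed resembled Ezh2 in CM and widened less. Suz12 had a start site peak of 5935 bp with romidepsin (chr11:79990462-79996396, fold 3.90, −log10 q 6.64) and of 2599 bp in CM (chr11:79992262-79994860, fold 6.42, −log10 q 6.81). Eed had one of 6874 bp with romidepsin (chr7:89976405-89983278, fold 4.54, −log10 q 8.93) and of 2814 bp in CM (chr7:89979196-89982009, fold 6.56, −log10 q 6.95). The length ratio was 2.28 at Suz12 and 2.44 at Eed, against 3.501 at Ezh2 and 5.62 at Ezh1. Within the romidepsin list the Eed fold stood at percentile 94.1 of start site peaks, and those of Suz12, Ezh2 and Ezh1 at 53.5, 44.1 and 37.2.

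Both genes also gained listed peaks away from the start. Eed had a romidepsin peak of 4520 bp within the gene (chr7:89965489-89970008, fold 3.09) and Suz12 one of 4811 bp beyond the gene's 3′ end (chr11:80040542-80045352, fold 3.23, partly outside the window). Neither place had a CM peak. At Eed, peaks covered 54.3% of the gene span with romidepsin and 6.77% in CM, and at Suz12 14.0% with romidepsin and 4.28% in CM.

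**Figure D2:**
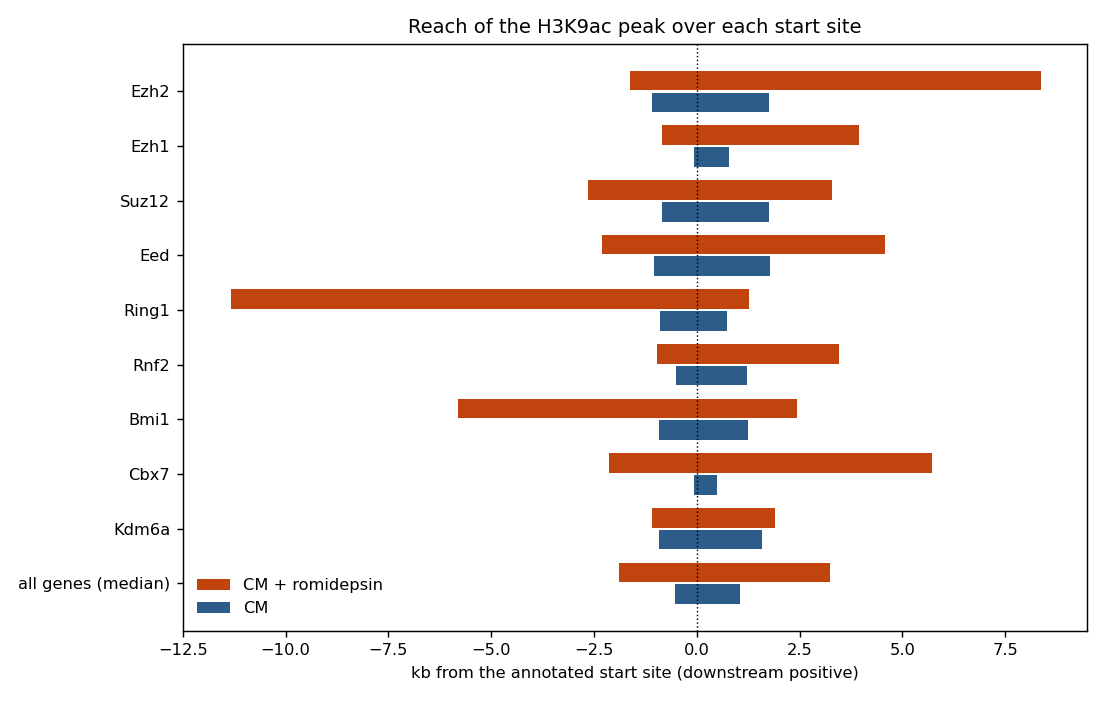
Reach of the peak over each annotated start site, in kb upstream (negative) and downstream (positive), for 9 genes and for the median over 6111 protein-coding genes with a single start inside the peak of both lists. Upper bars are CM with romidepsin and lower bars CM. Ring1 and Bmi1 reach farthest upstream with romidepsin (11.3 and 5.81 kb), Ezh2 farthest downstream (8.36 kb).

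PRC1 is built around the ubiquitin ligases RING1 (RING1A) and RNF2 (RING1B). The 4 PRC1 genes had 26 peaks with romidepsin and 10 in CM, and their windows were covered to 30.9% with romidepsin and 8.25% in CM. Ring1 and Rnf2 had the highest CM start site folds of the 9 genes. At Ring1 a single romidepsin peak of 12599 bp (chr17:34023410-34036008, fold 4.68, −log10 q 8.96) stood over the start, against a CM peak of 1631 bp (chr17:34023944-34025574, fold 7.39, −log10 q 8.497). The romidepsin peak ran upstream and took in 3 separate CM peaks, of which the other 2 lay over the starts of H2-Ke6 and of Slc39a7 and Rxrb. It reached 1270 bp into Ring1, and the CM peak 736 bp. Ring1 is only 3889 bp long, so its acetylation cannot be told apart from that of this row of neighbouring genes.

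Rnf2, which encodes the main PRC1 ligase of mouse embryonic stem cells, had a start site peak of 4438 bp with romidepsin (chr1:151497524-151501961, fold 4.38, −log10 q 7.99) and of 1720 bp in CM (chr1:151499774-151501493, fold 7.28, −log10 q 8.25). The fold stood at percentile 88.4 of start site peaks with romidepsin and at 95.2 in CM. No other gene of the RefSeq table lay in its window. Its 8 romidepsin peaks without a CM peak were 293 to 1949 bp long, with folds between 2.24 and 2.93.

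Bmi1, which encodes a RING finger partner of RNF2, shares its locus with Commd3. Its start site peak ran over 8236 bp with romidepsin (chr2:18671211-18679446, fold 4.04, −log10 q 6.83) and over 2160 bp in CM (chr2:18676106-18678265, fold 5.55, −log10 q 4.92). The romidepsin peak joined the Bmi1 peak of CM with the stronger CM peak over the starts of Commd3 and Gm33355 (1488 bp, fold 7.38), and it reached 5807 bp upstream and 2428 bp downstream of the Bmi1 start. A romidepsin peak of 2347 bp within Bmi1 (fold 3.76) had no CM peak beneath it. Downstream of Bmi1, a romidepsin peak of 4255 bp (fold 3.95) held the start of Gm46725 and a CM peak of 1315 bp (fold 4.22). Another of 2475 bp (fold 4.58), the strongest of the window with romidepsin, held a CM peak of 723 bp (fold 6.97). Peaks covered 49.7% of the Bmi1 gene span with romidepsin and 13.0% in CM.

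Cbx7, which encodes a chromodomain reader of H3K27 methylation, had the shortest CM start site peak of the 9 genes and the largest length ratio. Its peak ran over 7849 bp with romidepsin (chr15:79926923-79934771, fold 3.84, −log10 q 5.97) and over 554 bp in CM (chr15:79932156-79932709, fold 5.04, −log10 q 4.07). The ratio of 14.2 stood at percentile 97.7 of all genes with both peaks. The romidepsin peak also covered a second CM peak of 775 bp within the gene (chr15:79927443-79928217, fold 5.01). The annotated start lies inside the RefSeq span of Cbx7, and in CM neither end of that span had a peak within 1 kb. The promoter, marked as above, is shown because the CM peak over it ended 63 bp upstream of the start.
Cbx7 (chr15:79932617-79932896, minus strand): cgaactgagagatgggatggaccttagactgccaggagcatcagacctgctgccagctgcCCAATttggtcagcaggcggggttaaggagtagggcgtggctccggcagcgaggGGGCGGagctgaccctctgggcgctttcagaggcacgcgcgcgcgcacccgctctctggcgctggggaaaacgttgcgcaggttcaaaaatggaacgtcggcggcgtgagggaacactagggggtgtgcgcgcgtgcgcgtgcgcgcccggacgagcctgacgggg

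**Figure D3:**
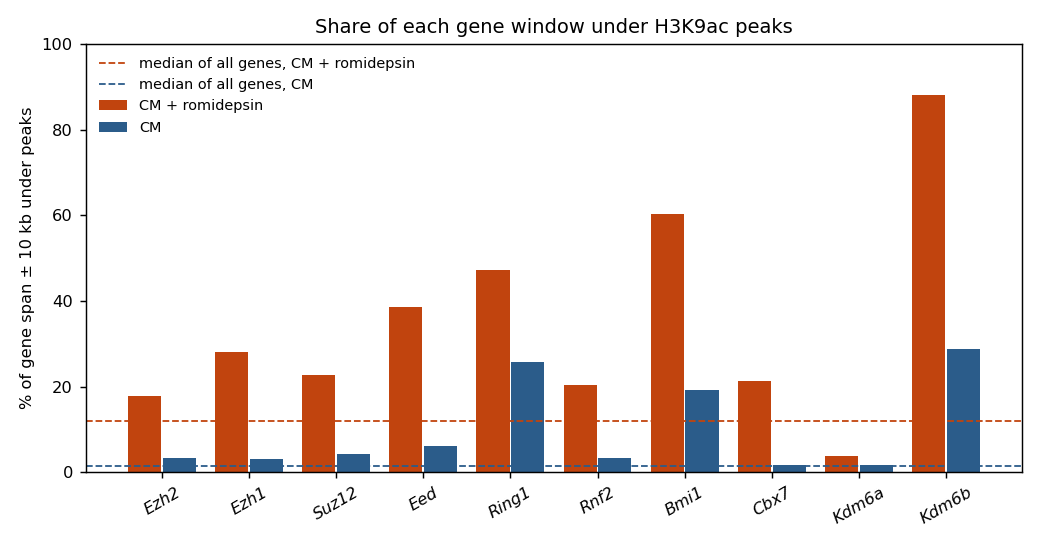
Share of each gene window (gene span and 10 kb on either side) under H3K9ac peaks, in percent, with romidepsin (left bars) and in CM (right bars). Dashed lines are medians over 21887 protein-coding genes, 12.0% with romidepsin and 1.46% in CM. Kdm6b stands highest in both conditions (88.1 and 28.9%) and Kdm6a lowest with romidepsin (3.85%).

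Of the 10 gene windows, those of the H3K27 demethylase genes had the highest cover (Kdm6b) and the lowest (Kdm6a) with romidepsin, while in CM Kdm6b was highest and Cbx7 (1.76%) lowest. Kdm6b (JMJD3) is known as a gene switched on in macrophages by inflammatory signals, and Kdm6a (UTX) as an X-linked gene that escapes X inactivation in the mouse. At Kdm6b, peaks covered 87.4% of the gene span with romidepsin and 42.4% in CM. Its window had 9 peaks with romidepsin and 6 in CM, covered to 88.1% with romidepsin and 28.9% in CM. These shares stood at percentile 98.0 of all gene windows with romidepsin and at 99.01 in CM.

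The Kdm6b gene (chr11:69398508-69420367) held 5 of the 6 CM peaks of its window. They were 4067, 581, 1163, 2369 and 1080 bp long from the lower to the higher coordinate, with folds of 6.38, 3.54, 4.70, 4.97 and 4.67. With romidepsin 1 peak of 9061 bp (chr11:69407107-69416167, fold 4.79, −log10 q 9.44) overlapped the first 3 of these, and 1 of 5187 bp (chr11:69416512-69421698, fold 4.67, −log10 q 9.01) overlapped the last 2. A CM peak of 2369 bp began shortly before that romidepsin peak and was the only CM peak in the 10 windows not wholly inside a romidepsin peak. Another long romidepsin peak of 10274 bp (chr11:69392500-69402773, fold 3.73) ran into the gene from the neighbours Cyb5d1, Naa38 and Tmem88, where CM had 1 peak of 2833 bp (fold 5.81). The non-coding gene Gm51903 overlaps the upper end of Kdm6b, and its acetylation cannot be told apart.

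Kdm6a differed from the other members in that its start site peak had almost the same extent in both lists. It ran over 2995 bp with romidepsin (chrX:18161480-18164474, fold 3.26, −log10 q 4.08) and over 2495 bp in CM (chrX:18161667-18164161, fold 5.12, −log10 q 4.10). The length ratio of 1.20 stood at percentile 0.801 of all genes with both peaks. The romidepsin list was also reduced to its 16419 best peaks by −log10 q, as many as in CM. The Kdm6a start site peak was then no longer among them, while those of the other 8 genes were. The lowest −log10 q kept was 4.34. Over all genes with a start site peak with romidepsin the lower quartile of −log10 q was 4.96, so most of those genes kept theirs too. The exact share was not computed. X-linked start site peaks with romidepsin had a median −log10 q of 2.95 and an upper quartile of 3.45, so most of them were lost too. Only 3 further peaks were listed with romidepsin in the Kdm6a window of 139.1 kb, each 950 bp or shorter, and none in CM. Peaks covered 3.85% of the window with romidepsin and 1.79% in CM. Its promoter is shown as the one under the least changed peak.
Kdm6a (chrX:18162325-18162604, plus strand): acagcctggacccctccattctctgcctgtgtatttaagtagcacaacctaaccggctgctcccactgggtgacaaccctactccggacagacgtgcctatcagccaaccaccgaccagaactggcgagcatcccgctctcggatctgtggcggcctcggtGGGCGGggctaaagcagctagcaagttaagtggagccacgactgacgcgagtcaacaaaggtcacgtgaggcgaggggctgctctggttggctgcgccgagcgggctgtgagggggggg

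Kdm6a is the only member on the X chromosome, where peaks were shorter and weaker in both lists. Over X-linked genes the median start site peak was 1791.5 bp with romidepsin and 733 bp in CM, beside 4784.5 and 1625 bp over autosomal genes. The median fold was 2.88 with romidepsin and 4.21 in CM on X, beside 3.88 and 5.82 on autosomes. Their median length ratio was 2.5 on X and 3.37 on autosomes. Among X-linked start site peaks Kdm6a was long and strong: its length stood at percentile 84.1 with romidepsin and 95.5 in CM, and its fold at 92.2 with romidepsin and 95.5 in CM. Its length ratio stayed low there, at percentile 7.62. The number of X chromosomes per cell is not given in the labels, and its part in these values was not tested. Uty, the Y-linked copy of Kdm6a, had a start site peak of 2893 bp with romidepsin (fold 2.76) and of 759 bp in CM (fold 4.92).

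**Figure D4:**
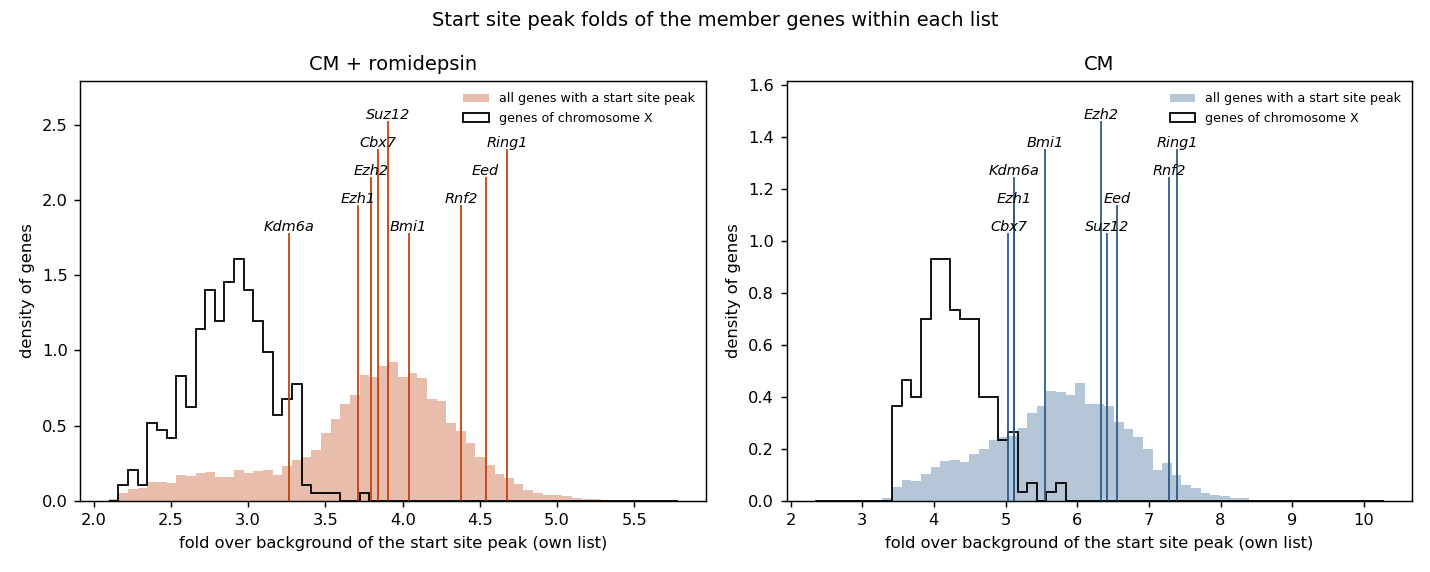
Fold over background of the start site peak of 9 genes (labelled lines) within the romidepsin list (left) and the CM list (right). Filled histograms are all protein-coding genes with a start site peak, outlines the genes of chromosome X, both as densities. Kdm6a lies high among the X-linked genes in both panels. Of the 9 genes, Ring1 and Eed have the highest folds with romidepsin, and Ring1 and Rnf2 in CM.

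Over the 10 windows together, 609.1 kb in all, peaks covered 160.4 kb (26.3%) with romidepsin and 39.5 kb (6.48%) in CM. The median gene window was covered to 25.4% with romidepsin and 3.81% in CM, beside 12.0 and 1.46% over all protein-coding genes. The members are longer than most genes (median 33471.5 bp, beside 17169 bp), and all had a peak in the window in both lists, which 72.2% of all genes had with romidepsin and 58.8% in CM. The covered length was greater with romidepsin in 10 of 10 windows, by 1.83-fold at Ring1 to 12.1-fold at Cbx7. Neither this count nor these ratios were computed over all gene windows. The whole romidepsin list held 103336 peaks, against 16419 in CM, so the count does not set the members apart. With equal numbers of peaks in the lists, 15 romidepsin peaks covered 15.9% of the windows, against the 22 peaks and 6.48% of CM.

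The romidepsin peaks in the windows were split by whether they overlapped a CM peak. A longer peak is more likely to overlap one, and lengths and folds of this split were not computed over the whole list. The 15 that overlapped a CM peak were 2475 to 12599 bp long (median 5935) with folds of 3.26 to 4.79. The 61 without a CM peak were 293 to 4811 bp long (median 710) with folds of 2.15 to 3.76, and 44 of them lay within the member gene away from its start. In the whole romidepsin list 12.9% of the peaks overlapped a CM peak, and in these windows 19.7% did. The sets are unlike, since every window here held a CM peak and 58.8% of all gene windows did. The share over windows with a CM peak was not computed. In the other direction all 22 CM peaks overlapped a romidepsin peak, as 99.9% of the whole CM list did. Of the 22, 21 lay wholly inside one, and the share wholly inside was not computed for the whole CM list.

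At most of the 9 genes more length was added downstream of the start than upstream. The start site peak gained more downstream than upstream at 6 of 9 genes (66.7%), beside 66.1% of 6111 genes. The exceptions were Suz12, Ring1 and Bmi1. At Ring1 and Bmi1 the upstream part held CM peaks of neighbouring genes, and at Suz12 the sides were close, with 1536 bp added downstream and 1800 bp upstream. Per gene, the median added was 2250 bp downstream and 1269 bp upstream over the 9 genes, beside 2039 and 1238 bp over the genome.

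The promoters of the 9 genes were rich in CpG. Their RefSeq entries of 300 bases held 17 (Eed) to 41 (Suz12) CpG, with a median of 30. Over all genes the median was 23 where both lists had a start site peak, 10 where only the romidepsin list had one and 3 where neither had. GGGCGG was found at 6 of the 9 (Suz12, Ring1, Rnf2, Bmi1, Cbx7 and Kdm6a), beside 35.7% of 32851 promoters, and CCAAT at 4 of the 9 (Ezh2, Suz12, Eed and Cbx7), beside 37.4%. The 32851 promoters include those of genes without a start site peak, and motif shares over genes with one were not computed. An E2F match was found at Ezh2 (TTTGGCGC, from position 4 on, in 0.514% of promoters) and at Suz12 (TTTCCCGC, from position -219 on, in 1.07%). None of the 9 held CCGGAAG (ETS factors, 8.86% of promoters), TATAAA (13.6%) or the motifs searched for NRF1 (0.971%) and YY1 (0.633%). Both strands were searched and the matches found did not overlap one another except for repeats of GGGCGG at Bmi1. A match describes the letters and shows no binding.

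Other genes of the Polycomb system were examined at their starts. Of 45 listed genes 36 had an annotated start. Of these, 34 had a start site peak in both lists, none in 1 list only, and Scml2 and Ncoa6 in neither. The Ncoa6 window still had 12 peaks with romidepsin and 2 in CM, and the Scml2 window 0 in both. Over all genes with an annotated start 51.4% had the peak in both lists. The median length ratio of the 34 was 3.18, from 1.64 at Lcorl to 17.8 at Pagr1a, beside 3.35 over all genes. The peak was longer with romidepsin at all 34, as it was at 99.5% of all genes with both peaks, so the widening was near the genome-wide level. The median length of the 34 was 5527 bp with romidepsin and 1667 bp in CM.

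All 9 PRC2 partner genes with a start entry had the peak, with the highest fold at Lcorl with romidepsin (4.48) and at Aebp2 in CM (7.79). Jarid2, which encodes a PRC2 cofactor, had one of 13830 bp with romidepsin and 961 bp in CM. Among canonical PRC1 genes with a start entry 7 of 8 had it, with Phc3, a polyhomeotic subunit gene, highest in both lists (4.61 with romidepsin, 7.01 in CM). Cbx8, another chromodomain reader gene, widened like Cbx7, to 12041 bp with romidepsin, against 774 bp in CM. Of 10 listed variant PRC1 genes 7 had a start entry, and these 7 had it, with Pcgf5 highest with romidepsin (4.79) and Pcgf3 in CM (6.75).

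Of 6 listed genes of the H2A deubiquitinase complex PR-DUB 4 had a start entry, and these 4 had the peak, with Bap1, its catalytic subunit gene, highest (4.63 with romidepsin, 7.35 in CM). Of 9 genes listed beside Kdm6a, mostly subunits of the H3K4 methyltransferase complexes it works in, 8 had a start entry and 7 of these had the peak, with Kmt2c highest with romidepsin (4.62) and Pagr1a in CM (6.93). The X-linked Rbbp7, Bcor and Bcorl1 had folds below those of Kdm6a in both lists, at 3.14, 2.89 and 2.93 with romidepsin and 3.90, 3.45 and 3.91 in CM. Among listed genes without a start entry, Asxl3 had no peak in its window in either list, and Epop, Cbx2, Pcgf1, Rybp, Yaf2, Foxk1 and Ash2l had peaks in both.

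**Figure D5:**
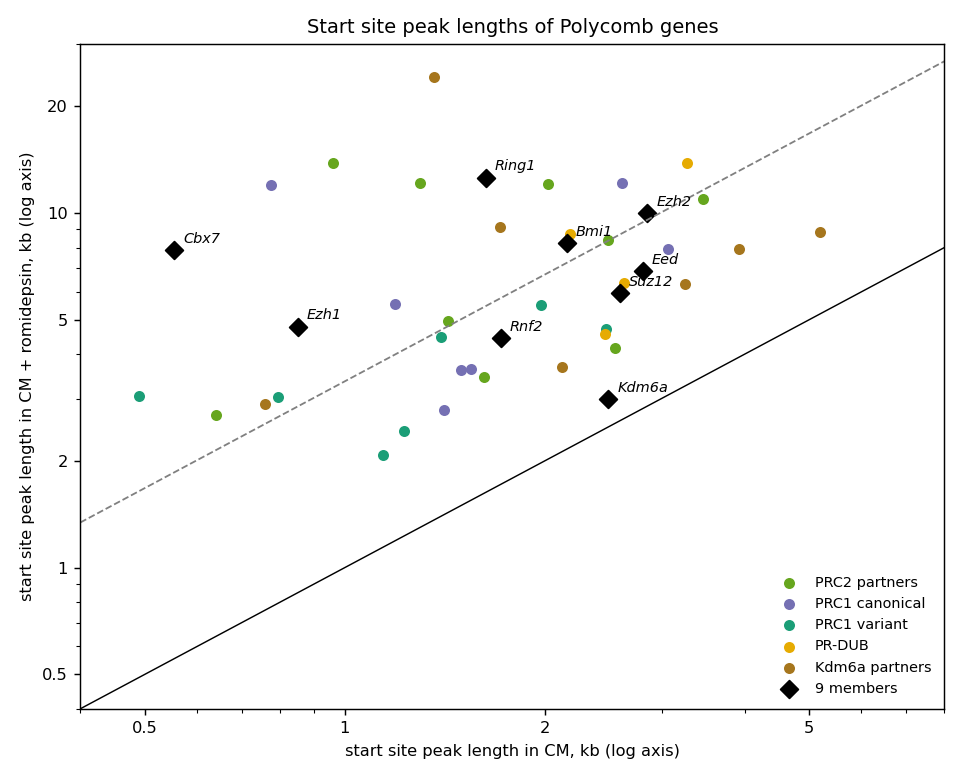
Length of the start site peak with romidepsin against its length in CM, in kb on log axes, for 9 members (diamonds) and 34 other Polycomb genes by role (dots). The solid line marks equal length and the dashed line the median ratio over all genes (3.35). All points lie above the solid line, with Kdm6a closest to it and Cbx7 and Ring1 well above the dashed line.

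The labelled cell type was checked at marker genes, beside shares over all genes of 63.1% with romidepsin and 51.4% in CM. Myeloid and suppressor cell genes had a start site peak at 8 of 9 genes with romidepsin and 7 of 9 in CM, among them Itgam, Cebpa, Cebpb, Csf3r and Lyz2. Ly6g had one with romidepsin only and S100a9 in neither list, and of the 5 without a start entry Arg1 and Nos2 had no CM peak in their windows, while the other 3 had 3 to 7 CM peaks. Lymphocyte genes had one at 3 of 6 with romidepsin and 1 of 6 in CM (Gata3), erythroid genes at 2 of 3 with romidepsin and 1 of 3 in CM (Klf1), and stromal genes at 1 of 2 with romidepsin (Pdgfra) and 0 of 2 in CM. The part of other cell types in the peaks at the members was not tested.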

How the data were processed

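The submitters' processing notes name Bowtie2 2.4.4 among the tools, with MACS2 2.2.7.1, deepTools 3.5.1 and the genome build mm10. Whether the input served as control, the settings and any read filters are not given in the sources used here. The authors deposited 1 broad peak list per immunoprecipitated library. Each deposited peak has a score (not used here), a fold enrichment, which is a ratio, and its p-value and q-value, both as −log10. The authors' fold, p and q are means over the peak, and read numbers are unknown.

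Positions were written 1-based. Gene spans and starts came from RefSeq tables of GRCm38.p6, and starts (17492 of 21887 genes) were read from promoter entries of 300 bases. A start site peak overlapped 1 kb on either side of a start by at least 1 bp, the strongest by fold being used. The CpG count of a gene with several entries was the highest of them. Intervals are exact Clopper-Pearson at 95%. The members and lists were chosen with earlier results of these data known. All 10 members are named, and of the other Polycomb genes those with a peak in 1 list only or in neither and the highest fold of each role. Others named (Jarid2, Cbx8, Lcorl for its ratio, the X-linked genes and Uty) were chosen after their values were seen. The values of 1 listed gene are not reported here. Interval arithmetic in Python (version 3.11.15) was tested on simulated data.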

Additional observations from a re-analysis of the deposited data

How the results depend on the processing

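With 1 library per condition no replicate could be left out. No paired analysis was possible because each condition had 1 library. Of 147 values recomputed over 14 settings, 99 stayed within 1.5 times (counts) or were equal to 3 digits (medians and percentages). Some of the 99 could not change. The lowest fold in the windows was 2.15, above the threshold of 2, and the CM list stayed whole when the romidepsin list was reduced. The other 48 follow, romidepsin before CM. Peaks in the windows numbered 44 with romidepsin once a −log10 q of 2 was required, 15 and 10 at 5, 23 with romidepsin once a fold of 3 was required, 15 with romidepsin when its list was reduced to its 16419 best peaks by −log10 q (equal numbers), and 40 with romidepsin when peaks closer than 1 kb were merged. The windows were covered to 23.0 and 6.39% at a −log10 q of 2, 15.9 and 4.00% at 5, 19.6% (romidepsin) at a fold of 3, 15.9% (romidepsin) with equal numbers, 29.2 and 6.65% after merging, 23.2 and 5.52% with no flank, 26.4 and 6.71% with 5 kb, and 26.8 and 5.41% with 20 kb. At a −log10 q of 10 both lists had 0 peaks in the windows, 0% cover and 0 member or other Polycomb start site peaks. At a fold of 5 this held for romidepsin alone, with CM at 5.27% cover and 9 start site peaks, so 0 CM peaks were inside a romidepsin peak. No median length or fold exists at a −log10 q of 10, or with romidepsin at a fold of 5.

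At a −log10 q of 5 the start site peak was left at 8 of 9 genes with romidepsin (without Kdm6a) and 5 of 9 in CM (without Bmi1, Cbx7, Ezh1 and Kdm6a), with median lengths of 7361.5 and 2599 bp, median folds of 3.97 and 6.56, and 10 CM peaks inside a romidepsin peak. Over all genes with a start site peak, the median −log10 q was 6.19 with romidepsin and 5.50 in CM. Most of those genes therefore also kept a peak at a −log10 q of 5, and the exact shares were not computed. Equal numbers gave 7361.5 bp and 3.97 with romidepsin, again without Kdm6a, and merging 10686 bp and 3.80. Between the lists, cover was higher with romidepsin under every setting that left peaks in both. Depth is unknown and limits any reading of peak width or number.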

Other observations

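The H3K9ac peak over the Ring1 start also held the microRNA hairpin genes Mir219a-1 (chr17:34024983-34025092) and Mir219c (chr17:34025012-34025071, within the span of Mir219a-1), which lie upstream of the Ring1 start. Both were wholly inside the romidepsin peak of 12599 bp and the CM peak of 1631 bp.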
